A study of Mus musculus with 15 samples.

Results

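The RNA of 10 secreted or surface factors by which fibroblasts signal to leukocytes and to their surroundings was examined in TTF cells (tail-tip fibroblasts, as the abbreviation is commonly used) labelled wild type or SIRT7-KO; SIRT7 is a nuclear deacylase of the sirtuin family. They were chosen by symbol: the CC chemokines Ccl2, Ccl5 and Ccl7, the CXC chemokines Cxcl1, Cxcl5 and Cxcl12, the cytokines Il6, Csf1 and Lif, and Plaur, the cell-surface receptor of urokinase. All 10 were present among the 55487 genes counted. PolyA RNA was sequenced from cultures of female C57BL6/CAST hybrid mice. In such hybrids the maternal and paternal copies of a gene often differ in sequence, which lets a share of its reads be assigned to genome 1 or to genome 2. Values come from 3 wild-type libraries and 3 SIRT7-KO libraries, the latter named after the numbers in their titles, and wherever single values are listed they follow the order WT 1, WT 2, WT 3, then KO 2, KO 9, KO 22. The labels name no treatment; the animals' age and the way the gene was deleted are not stated there. The other 9 libraries of the series were not analysed here. The records that match the knockout libraries by number were entered in a later set than those of the wild-type libraries. If that match holds, set and genotype cannot be told apart. Nothing in the labels says that the wild-type libraries came from separate animals, so p-values measure the spread between these libraries, which may be partly technical, and a difference between cell lines cannot be told apart from one between genotypes.

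Chemokines are small secreted proteins that guide migrating cells through receptors coupled to G proteins. Ccl2 and Ccl7 draw monocytes, Ccl5 draws T cells and other leukocytes, Cxcl1 and Cxcl5 draw neutrophils through Cxcr2, and Cxcl12 holds blood stem cells and lymphocytes in place through Cxcr4. Fibroblasts make many of them when inflammatory signals switch on the transcription factor NF-kB. Csf1 is the growth factor of macrophages, Il6 and Lif are cytokines that signal through the shared receptor chain Il6st to STAT3, and Plaur concentrates urokinase, the protease that activates plasminogen, at the cell surface.

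The families are named for the spacing of their first cysteines. The coding sequence around such a pair of codons is shown for the 6 chemokines to set the families side by side. It is from the GENCODE M21 transcripts, 5′ to 3′, with the pair in capitals. The pair is the first that has the spacing of its family, which was set in the search. That spacing was adjacent codons for Ccl2, Ccl5 and Ccl7, and 1 codon between for Cxcl1, Cxcl5 and Cxcl12. Any earlier cysteine codon without that spacing was passed over.
Ccl2: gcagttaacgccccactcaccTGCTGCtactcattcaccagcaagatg
Ccl5: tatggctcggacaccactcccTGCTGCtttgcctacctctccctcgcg
Ccl7: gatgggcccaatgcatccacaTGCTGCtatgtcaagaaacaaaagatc
Cxcl1: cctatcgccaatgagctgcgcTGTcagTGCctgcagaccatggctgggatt
Cxcl5: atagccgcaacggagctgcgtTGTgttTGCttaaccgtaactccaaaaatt
Cxcl12: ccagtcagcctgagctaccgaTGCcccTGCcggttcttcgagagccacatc

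Promoter sequence was at hand for 6 of the 10 genes (Cxcl1, Cxcl12, Il6, Csf1, Lif and Plaur; RefSeq, GRCm38.p6) and was searched on both strands over the 250 bases before the start for 3 motifs: the NF-kB consensus, the AP-1 motif TGANTCA and the C/EBP motif TTGCNNAA. The NF-kB consensus was found in 3 of the 6 (Cxcl1, Il6 and Csf1), AP-1 in 3 (Il6, Lif and Plaur) and C/EBP in 2 (Il6 and Plaur). Among 32851 promoters of the table, 3.9% held the NF-kB consensus, 6.75% AP-1 and 9.56% C/EBP. In Cxcl1 the consensus was matched at adjacent positions that overlap, and no matches of different motifs overlapped in these 6 promoters. A match is a run of letters and says nothing of binding. The 50 bases around one match in each gene that had any are shown, because the genes differ in which motif was matched, on the gene's strand with the matched letters in capitals.
Cxcl1 (chr5:90891154-90891203, plus strand, NF-kB): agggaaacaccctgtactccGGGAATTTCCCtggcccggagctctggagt
Il6 (chr5:30013050-30013099, plus strand, NF-kB): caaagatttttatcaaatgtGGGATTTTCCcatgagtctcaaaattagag
Csf1 (chr3:107760594-107760643, minus strand, NF-kB): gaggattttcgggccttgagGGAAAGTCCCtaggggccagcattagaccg
Lif (chr11:4257320-4257369, plus strand, AP-1): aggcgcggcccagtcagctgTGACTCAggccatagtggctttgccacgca
Plaur (chr7:24462394-24462443, plus strand, AP-1 and C/EBP): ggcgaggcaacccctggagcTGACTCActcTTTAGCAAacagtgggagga

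The libraries were deep and of nearly equal size, each with 61065582 to 61506413 gene counts, and in the split table a genome could be assigned to 36.98% to 37.95%. Levels below are CPM, gene counts scaled to a library total of 1000000, so that 1 CPM is about 61 counts. The targeted gene, Sirt7, had 833, 1107 and 598 counts against 512, 694 and 787, with overlapping groups (log2 fold change -0.31, SE 0.27, adjusted p = 0.515, edgeR); its exons overlap Mafg on the same strand. The gene level therefore does not separate the genotypes, and groups are used as labelled. Of the coding transcripts, Sirt7-201 had 53, 58 and 159 estimated counts against 2, 0 and 0, but it held only 5.24% to 26.6% of the Sirt7 counts in wild type. Another coding form, Sirt7-207, had 118, 11 and 68 against 60, 129 and 0, with overlapping groups. Most counts of both groups lay in forms with a retained intron, such as Sirt7-203 (227, 256 and 133 against 191, 158 and 354). Fibroblast markers were abundant, with summed levels of 14418 to 14605 CPM in the WT and 23472 to 30427 CPM in the KO libraries, and 3 of 10 rose (Col1a1, Col1a2 and Col3a1), which make up most of the sum. Another 5 of the 10 had a log2 fold change below 0, none called: Thy1 stood at 101, 98.6 and 98.9 against 21.6, 0.195 and 71.5 CPM, Pdgfra at 68.6, 76.0 and 73.5 against 9.46, 11.4 and 81.3 CPM, and Dcn at 132, 118 and 127 against 194, 16.4 and 145 CPM. The knockout libraries thus differed among themselves in these defining markers, and the part of this in the levels below was not tested. Of 12 leukocyte markers, 9 had under 20 counts in every library, the macrophage marker Adgre1 and the T cell marker Cd3e were at 0 in all 6, and the summed level was 15.6 to 16.7 CPM in the WT and 20.3 to 30.0 CPM in the KO libraries. Endothelial (2.31 to 2.76 against 0.833 to 5.64 CPM), keratinocyte (4.62 to 5.39 against 3.79 to 5.57 CPM) and skeletal muscle markers (17.3 to 20.7 against 48.3 to 111 CPM) were low in sum, with Cdh5, Tie1, Myod1, Myog and Pax7 at 0 in all libraries. The 1 skeletal muscle marker that could be tested, Acta1, rose (log2 fold change 2.11, adjusted p = 0.0158, edgeR), while smooth muscle and pericyte markers summed to 7535 to 8388 against 9950 to 13474 CPM, with 2 of 7 risen and 1 fallen. The biological coefficient of variation was 0.125 among wild-type and 0.318 among knockout libraries, and the test used 1 spread for both.

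Ccl5 rose in the knockout libraries, and Plaur and Cxcl5 fell. The other 6 genes tested did not pass the threshold of adjusted p = 0.05 in edgeR's quasi-likelihood test, and Il6 was too low to test. Thus 3 of 9 tested genes were called, 1 higher and 2 lower, where 6.73% of all 16678 genes tested were called, 3.54% higher and 3.19% lower. The 9 genes were not chosen at random and no test compared them with other genes. Their median log2 fold change was -0.45, and that of all genes tested was 0.02. In 6 of the 9 (Ccl5, Ccl7, Cxcl5, Csf1, Lif and Plaur) the 3 knockout values lay wholly on one side of the 3 wild-type values, as they did in 35.9% of all genes tested. In this bulk RNA, fewer cells making a factor and less of its RNA per cell cannot be told apart. All 3 calls were lost when any 1 of the wild-type libraries was left out, with unchanged directions. Most calls over all genes were lost in the same runs: 1123 became 51, 45 and 50 without WT 1, 2 and 3. The authors' table by genome of origin was estimated separately, and its 3 parts do not always sum to the whole-genome count: of 11541 tested genes with at least 100 counts in every library, 15.6% differed by over 1.3-fold in at least 1 library. The fit was therefore repeated on those sums, an alternative chosen after seeing the data, and the same 3 genes were called, Ccl5 at an adjusted p of 0.0290, Cxcl5 at 0.0387 and Plaur at 0.0155.

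**Figure D1:**
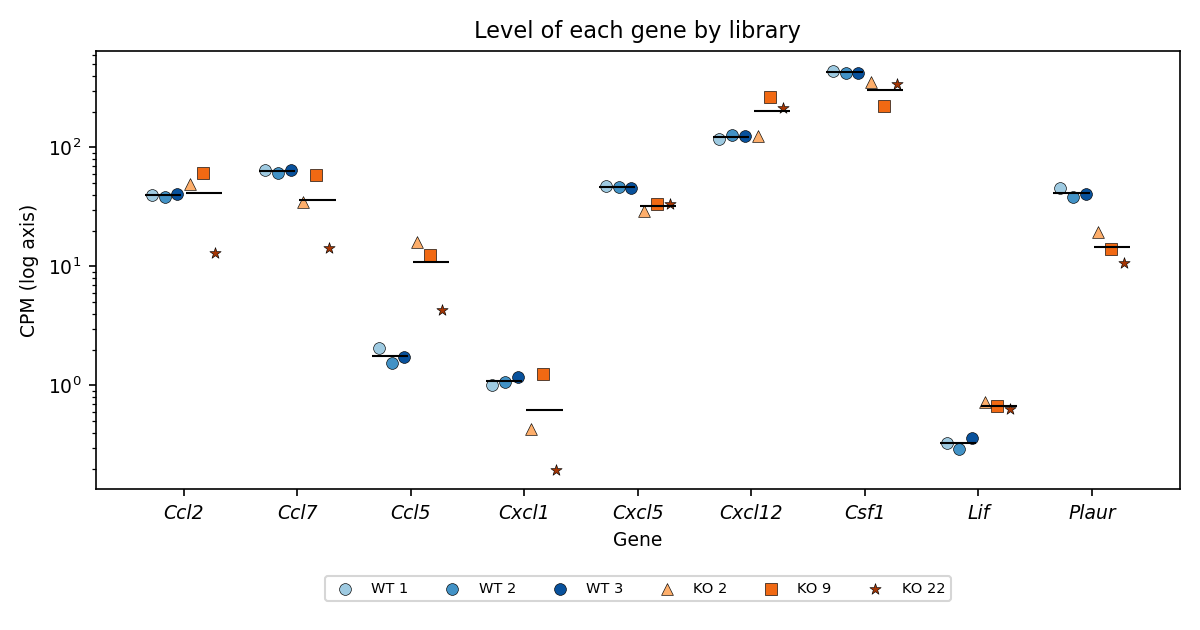
Level of 9 genes in each of the 6 libraries, in CPM on a log axis; points are libraries, coloured and shaped by library, and lines are group means. Ccl5 lies at 1.53 to 2.08 CPM without and 4.33 to 16.0 CPM with the knockout, while Plaur lies at 38.1 to 45.2 CPM and 10.6 to 19.3 CPM; Il6, with 0 to 4 counts, is not drawn.

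**Figure D2:**
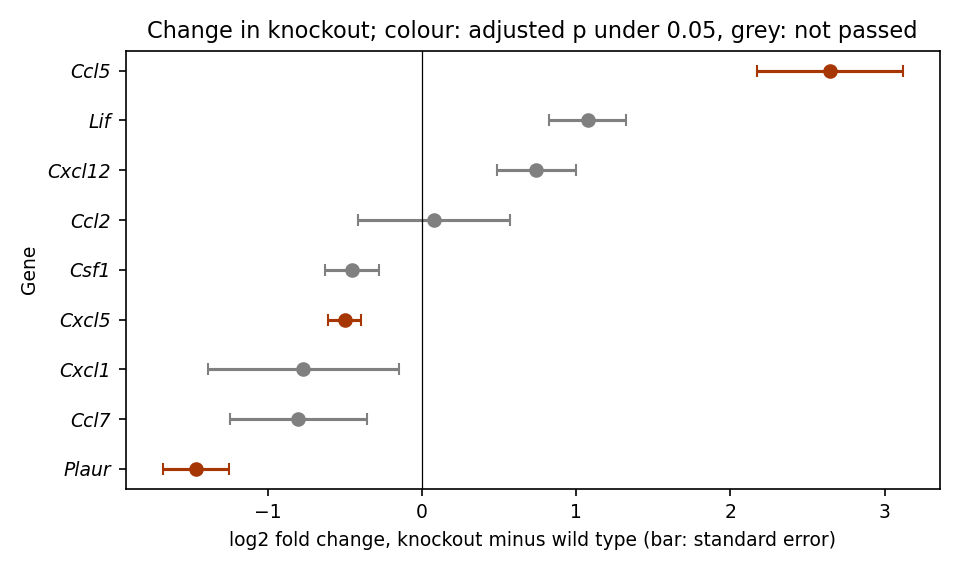
Log2 fold change of the 9 tested genes, knockout minus wild type, with the standard error as bars; coloured points passed adjusted p = 0.05 in edgeR and grey points did not. Ccl5 stands at 2.64 and Plaur at -1.46, and the bars of Ccl2, Ccl7 and Cxcl1 are wide.

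To set genes side by side, levels were divided by the length of all annotated exons of a gene, and their order depends on that length. For Cxcl12 it was 8176 bases, while its longest transcript had 5627. For Ccl7 it was 801 bases, the length of its transcript. An order by transcript length was not made. On this scale, Csf1 (81.1 ± 2.35 CPM per kb, SD, n = 3) and Ccl7 (79.4 ± 2.80) were the most abundant in wild type and overlapped. Ccl2 (34.9 ± 1.06) and Cxcl5 (24.9 ± 0.457) followed, each clear of its neighbours. Plaur (15.8 ± 1.39) and Cxcl12 (15.1 ± 0.651) overlapped. Below them stood Ccl5 at 1.85 ± 0.290, Cxcl1 at 0.580 ± 0.0418, Lif at 0.0750 ± 0.00743 and Il6 at 0.00894 ± 0.0155 CPM per kb. In the knockout libraries the order was Csf1 (57.9 ± 13.4), Ccl7 (44.8 ± 27.8), Ccl2 (36.3 ± 22.2), Cxcl12 (24.6 ± 8.52), Cxcl5 (17.2 ± 1.38), Ccl5 (11.4 ± 6.26) and Plaur (5.61 ± 1.67), in which each gene overlapped the next. Cxcl1 (0.333 ± 0.296) and Lif (0.155 ± 0.00969) overlapped, and Il6 (0.00670 ± 0.0116) came last. Plaur thus stood above Ccl5 without overlap in wild type, and overlapped it in knockout.

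Ccl5 (chromosome 11, 83525778 to 83530518, minus strand; GRCm38, protein-coding) had the largest fold change of the 9. It stood at 2.08, 1.53 and 1.72 CPM against 16.0, 12.5 and 4.33 CPM. Every knockout library was above every wild-type library, and KO 22 was the closest to wild type, at 2.44 times the wild-type mean beside 9.03 and 7.04 times in KO 2 and KO 9. The mean went from 1.78 ± 0.279 to 11.0 ± 6.01 CPM (SD, n = 3 each), 6.17-fold higher (log2 fold change 2.64, SE 0.47, adjusted p = 0.0309, edgeR). Nearly all of it was the coding transcript Ccl5-201, 95.7% to 99.5% of the gene's estimated counts in each library. The call was lost without WT 1, 2 or 3 (adjusted p = 0.148, 0.152 and 0.153) and without KO 9 (0.055), with limma-voom (0.056) and with no filter on low counts (0.0645), while the log2 fold change stayed between 2.28 and 3.02 when single libraries were left out. No count of Ccl5 was assigned to either genome in any library, so its copies could not be compared.

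Cxcl10, another chemokine that draws T cells and a known target of interferon, rose as well. It had 446, 376 and 384 counts against 1965, 1445 and 822, so that the groups did not overlap and the knockout libraries stood in the same order as for Ccl5. Mean Cxcl10 was 6.56 ± 0.650 CPM and rose 3.51-fold to 23.0 ± 9.38 (log2 fold change 1.84, SE 0.31, adjusted p = 0.0264, edgeR). Cxcl16, a membrane-bound chemokine that also draws T cells, fell from 0.669 ± 0.109 CPM to 0.180 ± 0.0429 (log2 fold change -1.86, SE 0.32, adjusted p = 0.0278, edgeR). These were the only calls among the 11 tested of 29 further chemokines, whose median log2 fold change was -0.07. The 1 rise and 1 fall were 9.09% each, where 3.54% of all genes tested rose and 3.19% fell. Both calls were lost when any 1 wild-type library was left out and when low genes were kept in the fit (0.0555 and 0.0531), and that of Cxcl16 in the voom fit with a weight per group (0.0757). None of the 3 leukocyte markers that could be tested was called by edgeR (1, Lyz2, had an unadjusted p under 0.05), and their part in the levels of Ccl5 and Cxcl10 was not tested; the T cell marker Cd3e was at 0 in every library.

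Ccl2 and Ccl7 are neighbours on chromosome 11 (82035571 to 82037453 and 82045712 to 82047525, plus strand, protein-coding). Ccl2 stood at 39.6, 38.6 and 41.0 CPM against 49.3, 61.6 and 13.0 CPM. KO 2 and KO 9 were above all wild-type libraries and KO 22 was below them, so the groups overlapped. The means were 39.7 ± 1.20 CPM and 41.3 ± 25.2 (log2 fold change 0.08, SE 0.49, adjusted p = 0.939, edgeR), and the direction turned with the library left out or the tool: -0.34 without KO 9, -0.06 without KO 2 and -0.185 with limma-voom. Ccl7 stood at 65.1, 61.0 and 64.7 CPM against 34.6, 58.7 and 14.2 CPM. All knockout values were below all wild-type values, KO 9 only just, and the difference was not called (63.6 ± 2.24 against 35.8 ± 22.3 CPM; log2 fold change -0.80, SE 0.45, adjusted p = 0.308). Both genes were highest in KO 9 and lowest in KO 22 among the knockout libraries. The coefficient of variation was 61.1% for Ccl2 and 62.1% for Ccl7 among knockout libraries, beside 3.03% and 3.53% in wild type.

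Cxcl5 and Cxcl1 lie close together on chromosome 5 (90759360 to 90761624 and 90891241 to 90893115, plus strand, protein-coding). Cxcl5 stood at 47.2, 46.6 and 45.5 CPM against 29.1, 33.7 and 33.4 CPM. The groups were far apart compared with their spread, and the 3 knockout libraries lay close together. Its mean fell 1.45-fold, from 46.4 ± 0.852 CPM to 32.1 ± 2.58 (log2 fold change -0.50, SE 0.10, adjusted p = 0.0429, edgeR). The call was lost without WT 1, 2 or 3 (adjusted p = 0.195, 0.18 and 0.189), without the filter on low counts (0.0728) and when each chromosome's median was taken out (0.0708). Cxcl1 was low, with 62, 66 and 72 counts against 26, 77 and 12. KO 9 lay above wild type and the other two below (1.09 ± 0.0784 against 0.625 ± 0.556 CPM; log2 fold change -0.77, SE 0.62, adjusted p = 0.476, edgeR). The related gene Cxcl2, between 0 and 2 counts in every library, was too low to test.

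Cxcl12 (chromosome 6, 117168535 to 117181367, plus strand, protein-coding) stood at 118, 128 and 124 CPM against 126, 263 and 214 CPM. KO 2 was at the wild-type level and KO 9 and KO 22 were at 2.14 and 1.74 times the wild-type mean. The difference of the means, 123 ± 5.32 against 201 ± 69.6 CPM, was not called (log2 fold change 0.74, SE 0.26, adjusted p = 0.132, edgeR). It was called by DESeq2 (0.74, adjusted p = 0.0435) and without KO 2 (0.99, adjusted p = 0.0134, edgeR). The table by genome of origin gave another picture, with sums of 6221, 5417 and 6660 counts against 5316, 7624 and 8344, where the whole-genome counts were 7177, 7860 and 7657 against 7700, 16197 and 13124. On the sums the groups overlapped and the log2 fold change was 0.26 (adjusted p = 0.44, edgeR), so the size of the difference depends on the table; the cause was not tested.

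The Cxcl12 transcripts differed in how they varied. The 3 coding forms share 267 coding bases and differ at the end: Cxcl12-202, Cxcl12-203 and Cxcl12-201, of 89, 93 and 119 codons, which match the alpha, beta and gamma forms of the protein; the gamma form has a long basic tail that binds heparan sulfate. The ends are shown from GENCODE M21, 5′ to 3′ from coding base 253, with the bases that differ and the stop codon in capitals.
Cxcl12-202: aaagctttaaacaagTAA
Cxcl12-203: aaagctttaaacaagAGGCTCAAGATGTGA
Cxcl12-201: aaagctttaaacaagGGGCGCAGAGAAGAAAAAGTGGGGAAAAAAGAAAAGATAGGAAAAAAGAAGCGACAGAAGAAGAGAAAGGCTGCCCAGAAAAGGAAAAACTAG
Cxcl12-203 held 36.9%, 40.8% and 39.1% of the gene's estimated counts against 50.4%, 64.1% and 57.8%, without overlap. It went from 48.1 ± 4.43 to 119 ± 52.8 CPM. Summed over the table by genome of origin, its share was 27.4%, 15.3% and 23.4% against 40.0%, 31.95% and 46.6%, again without overlap, but its count in KO 9 was 2436 in place of 10375. Cxcl12-201, by contrast, stood at 57.4 ± 0.960 CPM in the WT and 61.4 ± 14.3 CPM in the KO libraries, and its share went from 46.6% ± 2.11 to 31.5% ± 4.32. Cxcl12-202 made up 1.3% and 0.620% of the gene in the respective groups in the whole-genome estimates. In the sums by genome of origin it held 14.2%, 13.9% and 4.43% against 2.43%, 13.2% and 2.41%, so its share depended on the table. The rest was a transcript with a retained intron. These are the authors' estimates from reads that the forms largely share, and the shares were not tested.

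**Figure D3:**
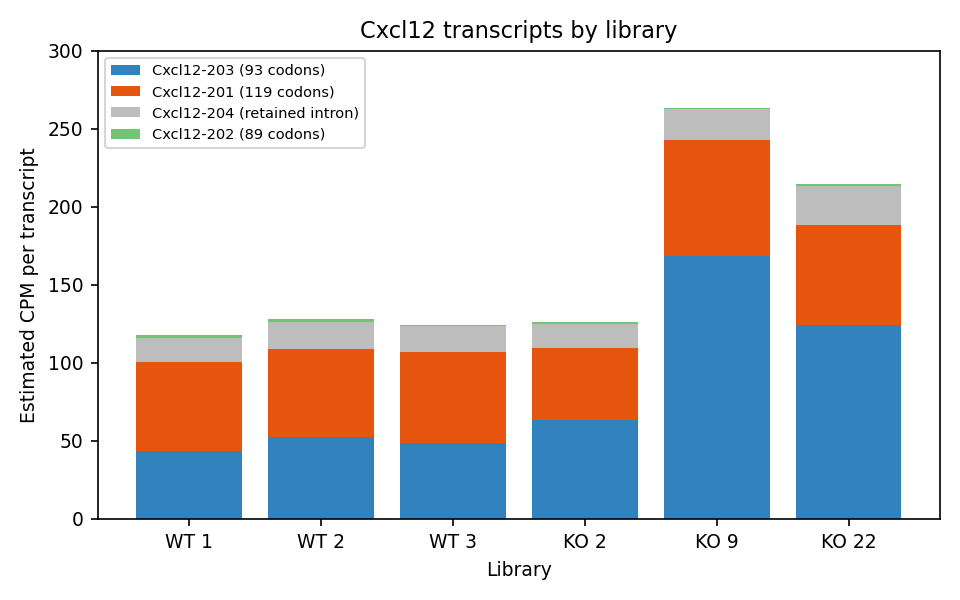
Estimated CPM of the 4 Cxcl12 transcripts in each library, from the whole-genome estimates, as stacked bars from 0. The segment of Cxcl12-203 is taller in KO 9 (169 CPM) and KO 22 (124 CPM) than in wild type (43.4 to 52.2 CPM), while that of Cxcl12-201 lies between 45.8 and 73.9 CPM in all 6 libraries.

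Csf1 (chromosome 3, 107741048 to 107760469, minus strand, protein-coding) stood at 442, 420 and 422 CPM against 354, 225 and 339 CPM. All knockout values were below wild type, with KO 9 the lowest at 0.525 times the wild-type mean, yet the difference was not called (428 ± 12.4 against 306 ± 70.8 CPM; log2 fold change -0.45, SE 0.18, adjusted p = 0.165, edgeR). Most of it was Csf1-201, whose share of the estimated counts was 88.0% ± 3.48 in WT and 80.0% ± 4.02 in KO libraries. The shorter coding form Csf1-202, of 257 codons, had 6.59% ± 1.60 and 10.9% ± 2.44, with overlapping groups. Its receptor Csf1r was too low to test, with 10, 6 and 8 counts against 2, 2 and 0.

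Lif (chromosome 11, 4257557 to 4272514, plus strand, protein-coding) was low, with 20, 18 and 22 counts against 44, 41 and 39. The knockout libraries lay close together and all lay above wild type. Its mean was 0.326 ± 0.0323 CPM in wild type and 0.675 ± 0.0422 in knockout, 2.07-fold higher, which missed the threshold (log2 fold change 1.08, SE 0.25, adjusted p = 0.0543, edgeR) and lay between 0.99 and 1.16 under every alternative run. Il6 (chromosome 5, 30013114 to 30019981, plus strand, protein-coding) had 0, 4 and 0 counts against 0, 3 and 0, at or about the limit that a count of 0 allows (3 counts, 0.0488 to 0.0491 CPM), so no difference was detectable at this depth.

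Plaur (chromosome 7, 24462484 to 24475968, plus strand, protein-coding) had the larger of the 2 falls. It stood at 45.2, 38.1 and 40.3 CPM against 19.3, 14.1 and 10.6 CPM. The highest knockout library, KO 2, was at 0.468 times the wild-type mean, and the groups did not overlap. Its mean fell 2.81-fold, from 41.2 ± 3.63 CPM to 14.7 ± 4.36 (log2 fold change -1.46, SE 0.22, adjusted p = 0.0190, edgeR). The call was lost without WT 1, 2 or 3 (adjusted p = 0.114, 0.0966 and 0.108) and held in all other alternatives, with log2 fold changes from -1.70 to -1.29. The share of the retained-intron form Plaur-204 depended on the table: it was 72.4% in WT 1 and 66.0% in KO 9 in the whole-genome estimates, and 31.0% and 28.4% in the sums by genome of origin. The coding form Plaur-201 stood at 10.5, 27.8 and 31.0 CPM against 11.7, 3.82 and 7.19 in the whole-genome estimates, with overlapping groups. In the sums by genome of origin Plaur-201 had 1389, 1012 and 1251 counts against 791, 493 and 328, without overlap.

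The fall of Plaur came with a change in the balance of its chromosome copies. Genome 1 held 75.1%, 76.3% and 76.5% of the allele-assigned Plaur counts against 45.3%, 48.2% and 56.6%. The 95% Wilson intervals, which cover counting error only, ran from 72.5% to 79.0% over the wild-type and from 41.1% to 62.1% over the knockout libraries, and the groups did not overlap. Genome 1 counts went from 825, 834 and 818 to 240, 170 and 167, 4.29-fold lower in the mean. Genome 2 counts went from 273, 259 and 251 to 290, 183 and 128, 1.3-fold lower, with KO 2 above all wild-type libraries. The log2 ratio of genome 1 to genome 2 differed by -1.66 (SE 0.23, adjusted p = 0.00421, edgeR with a term per library), and this call held in all 9 alternatives run, leaving out single libraries included.

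The allelic difference was shared by most of chromosome 7. Over the other genes of that chromosome, the genome 1 share went from 57.6% ± 0.808 to 31.7% ± 0.121. Of 959 genes tested there, 630 (65.7%) were called with a lower genome 1 share in knockout. Among all 12984 genes tested, 23.0% were called in either direction and 11.7% in this one. The median log2 allelic ratio of the 959 chromosome 7 genes was -1.59, close to the -1.66 of Plaur. The median total log2 fold change of the 1240 chromosome 7 genes tested for level, in contrast, was -0.04, and 40 of them fell. Within 1 Mb of Plaur, 2 of 42 tested genes fell and the median log2 fold change was -0.10, while 30 of 33 had an allelic ratio below 0, 26 of them called, with a median of -1.66. Plaur thus had the allelic ratio of its chromosome and a total change outside the median of its chromosome and of its neighbours. Which strain is genome 1 is not stated in the labels.

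**Figure D4:**
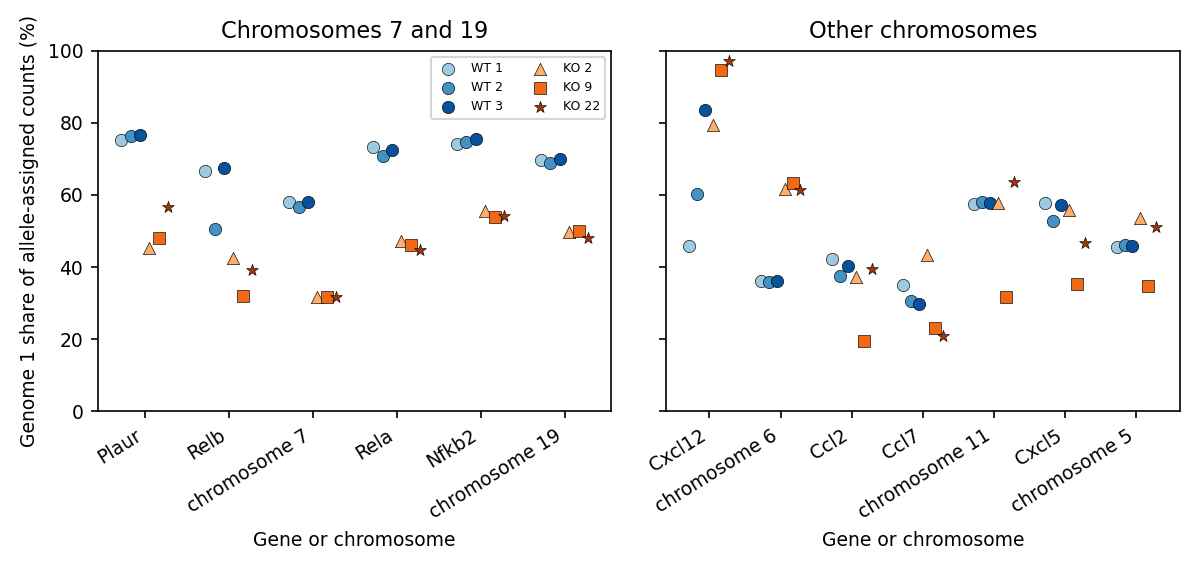
Genome 1 share of allele-assigned counts, in percent, for genes and for whole chromosomes without the 10 genes of the set, 1 point per library. On chromosome 7, Plaur goes from 75.1% to 76.5% in wild type down to 45.3% to 56.6% in knockout; on chromosome 11, KO 9 lies lowest for the chromosome (31.6%) and for Ccl2 (19.5%).

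Of the other genes, 5 had enough assigned counts for the allelic test, and none was called by edgeR or by limma on the log2 ratio; 1, Cxcl12, had an unadjusted p under 0.05 in edgeR. Cxcl12 had the widest range, with genome 1 shares of 45.9%, 60.3% and 83.5% against 79.3%, 94.6% and 97.0%. The wild-type libraries differed from each other more than the genotypes did on chromosome 6 as a whole, where the genome 1 share went from 36.0% to 62.0%, and their values overlapped those of the knockout libraries (log2 allelic ratio 2.81, SE 1.04, adjusted p = 0.11, edgeR; 3.68, adjusted p = 0.0433 without KO 2). Ccl2 had genome 1 shares of 42.3%, 37.6% and 40.3% against 37.1%, 19.5% and 39.5% (adjusted p = 0.378, edgeR). The low value in KO 9 went with its chromosome, as the other genes of chromosome 11 had 57.9%, 31.6% and 63.6% in KO 2, 9 and 22 and 57.5% to 58.1% in wild type. Cxcl5 had 57.7%, 52.8% and 57.2% against 55.9%, 35.2% and 46.8% (adjusted p = 0.271, edgeR). The other genes of chromosome 5 had 45.6%, 46.1% and 45.8% in wild type and 53.5%, 34.7% and 51.1% in KO 2, 9 and 22. Both were lowest in KO 9. In KO 22, by contrast, Cxcl5 lay below all wild-type libraries and the chromosome above them. Ccl7 (adjusted p = 0.774) and Cxcl1 (0.702) did not pass. Csf1, although abundant, had only 6 to 12 assigned counts in a library, with 13799 to 26996 unassigned, and Lif had 6 to 17.

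Of the 6 possible orders of the knockout libraries, 4 occurred among the 9 genes. Ccl2, Ccl7 and Cxcl1 were highest in KO 9, then KO 2, then KO 22, an order that 20.5% of all genes tested had. Ccl5, Lif and Plaur were highest in KO 2, then KO 9, then KO 22, an order found in 17.8% of genes tested. KO 22 was therefore the lowest knockout library for 6 of the 9 genes. Cxcl5 and Cxcl12 were lowest in KO 2, and Csf1 in KO 9.

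**Figure D5:**
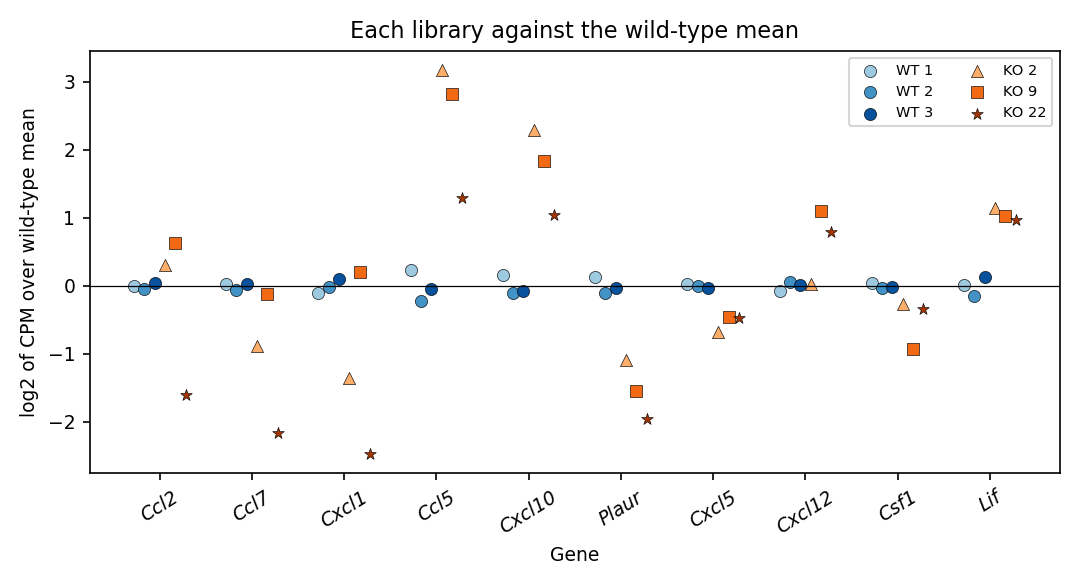
Log2 of the CPM of each library over the wild-type mean, for 9 genes of the set and Cxcl10, 1 point per library. KO 22 lies lowest among all libraries for Ccl2, Ccl7, Cxcl1 and Plaur, and all knockout points of Ccl5, Cxcl10 and Lif lie above the wild-type points.

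Of 15 receptors through which these factors act, 4 were expressed enough to test. None of the 4 was called by edgeR, 1 (Il6ra) had an unadjusted p under 0.05, and DESeq2 and limma-voom each called 1. The leukocyte receptors Ccr1, Ccr2 and Ccr3 and the scavenging receptor Ackr1 were at 0 counts in every library. Ackr3, which takes up Cxcl12, had 917, 871 and 770 counts against 253, 223 and 815; KO 22 was within the wild-type range and the other two far below (log2 fold change -0.94, SE 0.51, adjusted p = 0.298, edgeR). Without KO 22 the difference was called (-1.83, adjusted p = 0.00443). Il6ra, which binds Il6, went from 12.8 ± 0.772 to 6.29 ± 2.30 CPM without overlap and missed the threshold (-1.0, SE 0.25, adjusted p = 0.0671); it was called by DESeq2 (adjusted p = 0.00301), by limma-voom (0.0495, and 0.0421 with a weight per group), without KO 2 (0.0137, edgeR) and on the sums by genome of origin (0.0427). The shared signalling chain Il6st (358 ± 5.20 against 355 ± 131 CPM; 0.03, adjusted p = 0.962) and the Lif receptor Lifr (98.2 ± 8.82 against 111 ± 33.0 CPM; 0.21, adjusted p = 0.587) were abundant, overlapped between groups, and turned negative without KO 22 (-0.34 and -0.08).

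Of 41 genes of NF-kB and its upstream signalling, all tested, 5 fell (12.2%), 1 rose (2.44%) and 35 were not called. Among all genes tested, 3.19% fell and 3.54% rose. The median log2 fold change of the 41 was -0.10. Bcl3, a nuclear partner of the p50 and p52 subunits, was nearly lost, with 238, 180 and 210 counts against 0, 0 and 2 (log2 fold change -8.02 as fitted, which depends on the prior count at such low values, adjusted p = 0.00508, edgeR). The subunits Relb (27.0 ± 2.45 to 15.1 ± 1.83 CPM; -0.81, SE 0.15, adjusted p = 0.0320), Nfkb2 (179 ± 16.3 to 108 ± 15.1 CPM; -0.70, SE 0.13, adjusted p = 0.0320) and Rela (156 ± 13.3 to 107 ± 9.94 CPM; -0.51, SE 0.11, adjusted p = 0.0427) fell, as did the inhibitor Nfkbie (4.01 ± 0.555 to 1.69 ± 0.268 CPM; -1.21, SE 0.21, adjusted p = 0.0288). Ikbkg, the regulatory subunit of the kinase that activates NF-kB, was called higher in the whole-genome counts, 834, 691 and 784 against 1677, 2334 and 1234 (1.21, SE 0.24, adjusted p = 0.0368). In the sums by genome of origin it had 1168, 1003 and 1091 against 1010, 1163 and 1054, with overlapping groups (0.019, adjusted p = 0.942), so that the call rests on 1 of the 2 tables. The exons of Ikbkg overlap G6pdx and those of Nfkb2 overlap Psd on the other strand; the labels do not state whether the counting used strand, so these 2 values are uncertain. The number that fell was 8 with DESeq2, 1 with no filter on low counts and 0, 1 and 1 without WT 1, 2 and 3. Calls over all genes, 1123 in the main fit, moved in the same runs to 2559, to 396 and to 51, 45 and 50. The Ikbkg call was also lost without any 1 wild-type library, without KO 2 (adjusted p = 0.0523, edgeR) and with no filter (0.073). The fall of Rela was lost without KO 9 (0.0522) and, with that of Nfkbie, in the voom fit with a weight per group (0.0614 and 0.0559). All 5 falls were called on the sums by genome of origin.

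Of the 5 genes that fell, Rela and Nfkb2 are on chromosome 19. Its 593 tested genes had a median log2 fold change of -0.21, with 64 falls. Its genome 1 share went from 69.5% ± 0.577 to 49.2% ± 1.09. The genome 1 share of Nfkb2 went from 74.7% ± 0.715 to 54.5% ± 0.906 (adjusted p = 0.00152, edgeR allelic test) and that of Rela from 72.3% ± 1.29 to 46.1% ± 1.15 (adjusted p = 0.00176). With each chromosome's median taken out, Rela (-0.28, adjusted p = 0.163) and Nfkb2 (-0.48, adjusted p = 0.0623) were no longer called. Nfkbie, on chromosome 17, moved from -1.21 to -0.93 in that fit and was still called (adjusted p = 0.0455, edgeR). Relb and Bcl3 lie on chromosome 7 with Plaur; the genome 1 share of Relb went from 61.6% ± 9.53 to 37.8% ± 5.33 (adjusted p = 0.0382). The part of these chromosome-wide differences in the levels of the chemokines was not tested.

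In the IL-6 family and its JAK-STAT3 pathway, 18 of 20 genes were tested, 1 rose and 1 fell, with a median log2 fold change of -0.21. These were 5.56% each, where 3.54% of all genes tested rose and 3.19% fell. Tyk2, a kinase of these receptors, rose from 17.9 ± 0.664 to 25.9 ± 1.76 CPM (0.56, SE 0.10, adjusted p = 0.0325, edgeR). Socs3, a STAT3 target that restrains the pathway, fell from 29.8 ± 2.61 to 16.9 ± 2.59 CPM (-0.78, SE 0.16, adjusted p = 0.0394). Both calls were lost without any 1 wild-type library and with chromosome medians taken out (adjusted p = 0.125 and 0.0607) or with no filter (0.0569 and 0.0728), and that of Socs3 also without KO 2 (0.058) or KO 9 (0.0629) and in the weighted voom fit (0.0507). Among 14 tested genes of 18 around urokinase and plasminogen, Itgb1, the integrin chain beside which Plaur works, rose from 1084 ± 53.5 to 1758 ± 123 CPM (0.73, SE 0.09, adjusted p = 0.0125), and Serpine2, a serine protease inhibitor, fell from 29, 48 and 33 counts to 3, 6 and 0 (-3.53, SE 0.75, adjusted p = 0.0451). The 1 rise and 1 fall were 7.14% each of these 14 genes, whose median log2 fold change was 0.06. Neither call held without any 1 wild-type library, and that of Serpine2 was lost without KO 2 (adjusted p = 0.0831), with no filter (0.0987) and in the weighted voom fit (0.0625) as well. Of 25 other inflammatory factors 14 were tested, with a median of 0.04. None was called by edgeR, 2 had an unadjusted p under 0.05, and DESeq2 called 1 and limma-voom 0. The most abundant, Mif, stood at 594 ± 18.7 and 542 ± 215 CPM (-0.11, adjusted p = 0.842), and Ptx3, a secreted pattern-recognition protein, at 270 ± 12.0 and 318 ± 361 CPM (0.29, adjusted p = 0.850), with 142, 78.3 and 734 CPM in KO 2, KO 9 and KO 22; without KO 22 it was lower in knockout (-1.28, adjusted p = 0.0310).

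The gene whose log2 CPM followed each factor most closely over the 6 libraries was sought among about 10795 genes with a mean of at least 5 CPM. It is given as a description, since all points share the same libraries and depth. With 6 libraries and so many candidates, the closest match can come near 1 in Pearson's r by selection alone. For Ccl5 the second gene, Ifit1, reached 0.9984, so the gene named is 1 of several nearly as close. Pearson's r was 0.9985 between Ccl5 and Lta4h, which makes leukotriene B4, 0.9995 between Cxcl12 and the matrix glycoprotein gene Tnc, 0.9999 between Csf1 and the phosphatase gene Cdc25b, and 0.9987 between Plaur and Polr1a, a subunit of RNA polymerase I. It was 0.9970 between Ccl2 and Mlf1, 0.9956 between Ccl7 and Neurl1a, 0.9989 between Cxcl1 and Fam129a, 0.9980 between Cxcl5 and Tulp3 and 0.9974 between Lif and Pgghg. Of these genes, 0.722% to 3.26% had an r above 0.95 with a given factor. The match of Cxcl12 uses the whole-genome counts, which differ from the sums by genome of origin.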

How the data were processed

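TTF cell polyA RNA was selected and sequenced at a company, per the labels' protocols. Tools in the submitters' processing notes are StringTie 1.3.3, HISAT2 2.1.0, DESeq2 1.32.0, Trimmomatic 0.36, FastQC 0.11.3 and SAMtools 0.1.19, and the builds are GRCm38 and mm10; their roles, settings and the strand are not given in the sources. The authors deposited estimated counts for genes and transcripts, each for the whole genome and by genome of origin (genome 1, genome 2, unassigned); StringTie derives such counts from coverage, hence the word estimated. All are whole numbers and needed no rounding. Sample columns were assigned from their names. The knockout names hold the numbers of 3 later titles; an earlier knockout set without such numbers could be the source instead, with the same genotype. Of the gene IDs, 55141 matched GENCODE M21 and 346 did not.

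The quasi-likelihood test of edgeR 4.0.16 (R 4.3.3) compared the groups after TMM scaling and filterByExpr; p-values were adjusted by Benjamini-Hochberg over all genes tested and called under 0.05. The allelic model compared genome 1 with genome 2 counts of the same library and asked whether that ratio depended on the group, where the mean was at least 20 assigned counts. Alternatives used DESeq2 1.42.0, limma 3.58.1, other scaling and filters, chromosome medians taken out, and single libraries left out. Sums over the table by genome of origin were fitted too, chosen after seeing the data. Both fits were tested on simulated data. The factors and the 6 pathway and 6 marker lists were chosen with earlier results of these data known. The genes named were all 10 factors, Sirt7, every tested receptor, up to 5 called genes per list and direction by p (or the 2 most abundant tested genes of a list with no call) and the 1 gene most alike in r; others were chosen after their values were seen.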

Additional observations from a re-analysis of the deposited data

How the results depend on the processing

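No paired analysis was possible because the labels name no pairs of wild-type and knockout libraries. The wild-type numbers count replicates and the knockout numbers are those in their titles, so a shared number would not make a pair. The number of genes called, 1123, was 2559 with DESeq2, 396 with no filter on low counts and 45 to 2482 when single libraries were left out. Of the 10 factors 3 were called, and the number was 1 with no filter, 0 to 4 when single libraries were left out (0 without any 1 wild-type library), 4 with DESeq2 and 2 with limma-voom. The allelic test called 2992 genes, and 1710 to 3822 without single libraries. On the sums by genome of origin 1138 genes and 3 factors were called. Among 117 values of the 9 tested factors, 97 kept direction and side of the threshold, 14 fell below it, 2 came above it and 4 changed sign. Ccl2 was -0.185 with limma-voom, -0.18 with a weight per group, and -0.34 to 0.49 without single libraries. Il6st was -0.040 with both voom fits, -0.12 with chromosome medians taken out and -0.34 to 0.20 without single libraries. Without single libraries, Lifr was -0.080 to 0.36, Mif -0.40 to 0.15 and Ptx3 -1.28 to 0.74, and Ptx3 was -0.39 with both voom fits. The log2 allelic ratio of Ccl7 was then -0.71 to 0.031 (0.021 without KO 9) and that of Cxcl1 -1.65 to 0.17. The causes were not tested. Low counts limit Lif, Cxcl1, Cxcl16 and Serpine2, and few assigned counts leave Ccl5, Csf1, Lif and Il6 without an allelic value.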

Other observations

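Of further inflammatory genes chosen after their values were seen, 3 varied widely between knockout libraries. Ccl8, a monocyte chemokine beside Ccl2 and Ccl7 on chromosome 11, had 40, 32 and 42 counts against 17, 81 and 5 (in the order WT 1, WT 2, WT 3, then KO 2, KO 9, KO 22), the same order of knockout libraries as its neighbours. Cxcl14, a chemokine of skin, had 278, 221 and 225 counts against 9, 7 and 565, and Ctf1, a cytokine that signals through Il6st, had 115, 147 and 122 against 8, 7 and 262; in both, KO 22 was the highest of all libraries and KO 2 and KO 9 the lowest.

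WT 1 also stood apart in transcripts: the retained-intron form Ccl2-202 held 68.0% of the Ccl2 estimated counts there and 20.2% and 18.8% in WT 2 and 3; in the sums by genome of origin it was 42.3%, 17.4% and 17.6%. Lif-201, of 158 codons, was estimated at 43 counts in KO 2 (29 in the sums by genome of origin) and at 0 elsewhere, where the form Lif-202, of 203 codons, had 16 to 39.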
